A study of Rattus norvegicus with 10 samples.

Results

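The immunoglobulin adhesion genes Vcam1, Alcam, Icam1, Ncam1 and Mcam were compared in cells grown out of skull vault bone and out of the ulna, the larger bone of the lower foreleg, from the same 5 rats. Each gene was found on the arrays by the gene symbol of its probe, taking the brightest probe by the mean over all 10 arrays. All 5 genes were measured by 1 probe each, out of 13336 named genes on the arrays, so no second probe could check a value. The genes were put together with the site difference of Vcam1 and Alcam already known, and Alcam was one of the bone-associated genes that the study had picked on these same arrays. The site differences of the 5 genes are therefore described here and not tested. The paper also lists Alcam as higher in whole skull bone than in whole limb bone, on arrays of another maker.

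Cultures of skull bone (calvarial, abbreviated S-Bdc) and of limb bone (ulnar, L-Bdc) came from male CD rats, and the labels name no treatment and no genetic change. Cells of the third enzyme digest of cleaned bone were grown in medium with newborn calf serum, and RNA was taken at passage 3 and 95% confluence. There were 5 S-Bdc and 5 L-Bdc, 1 of each from every rat, and the rat is the replicate. Such digests can hold other cells of bone beside osteoblasts, and cells after passage need not stand for the bone they left.

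Adhesion molecules of the immunoglobulin superfamily sit in the cell membrane with a row of immunoglobulin-like domains facing outward. Some bind integrins on another cell, as the products of Vcam1 and Icam1 do, and others bind a copy of themselves, as those of Alcam and Ncam1 can. In bone and marrow, stromal cells that carry Vcam1 hold blood-forming and lymphoid cells, Alcam (CD166) and Mcam (CD146) are used to mark stromal progenitors, and Ncam1 is known from condensing mesenchyme, nerve and muscle. Vcam1 and Icam1 are classic targets of NF-kB, the transcription factor that tumour necrosis factor and interleukin 1 switch on.

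Because Vcam1 and Icam1 share this regulator and had site differences of unlike size, the stretch from 250 bases before to 50 bases after the start of each gene is shown where a sequence was given, which was so for 3 of the 5 genes. Sequences are from RefSeq on the rat build GRCr8, read 5′ to 3′ along the gene. Capitals mark matches to 2 forms of the NF-kB site searched on both strands, GGAAATTCC and a loose form in which GGG and CCC stand with any 4 bases between, and to the TATA box letters TATAAA on the gene's strand. The motifs do not overlap in these sequences.
Vcam1, chr2:206742734-206743033, minus strand: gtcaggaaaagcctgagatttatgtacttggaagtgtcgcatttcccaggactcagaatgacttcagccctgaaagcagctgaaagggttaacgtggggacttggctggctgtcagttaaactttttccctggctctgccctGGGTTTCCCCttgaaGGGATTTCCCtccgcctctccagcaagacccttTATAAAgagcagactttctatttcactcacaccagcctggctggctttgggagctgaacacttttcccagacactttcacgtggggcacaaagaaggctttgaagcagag
Icam1, chr8:27829595-27829894, plus strand: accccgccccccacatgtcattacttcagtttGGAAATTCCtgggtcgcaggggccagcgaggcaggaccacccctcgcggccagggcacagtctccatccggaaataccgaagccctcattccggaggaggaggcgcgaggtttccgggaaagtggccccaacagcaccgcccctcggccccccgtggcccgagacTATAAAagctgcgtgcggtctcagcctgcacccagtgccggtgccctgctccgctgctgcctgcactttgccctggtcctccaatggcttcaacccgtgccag
Alcam, chr11:61805207-61805506, plus strand: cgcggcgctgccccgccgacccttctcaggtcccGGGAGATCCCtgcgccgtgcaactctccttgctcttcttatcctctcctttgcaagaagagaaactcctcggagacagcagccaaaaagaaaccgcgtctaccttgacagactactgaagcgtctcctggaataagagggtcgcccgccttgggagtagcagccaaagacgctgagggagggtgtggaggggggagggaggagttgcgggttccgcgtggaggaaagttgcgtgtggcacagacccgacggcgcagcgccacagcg

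Vcam1 held 2 matches to the loose form, GGGTTTCCCC from base -108 to -99 and GGGATTTCCC from -93 to -84, counted from the start. In the human gene, a pair of neighbouring NF-kB sites carries its response to cytokines. Of 33469 rat gene starts of the same length, 11.6% held at least 1 such match and 2.28% held 2 or more. Icam1 held no loose match but held GGAAATTCC from -218 to -210, a form present at 0.332% of gene starts. That form is fixed at every base and the loose form is not, so their shares are not compared. Alcam held 1 loose match, GGGAGATCCC, from -216 to -207. TATAAA stood at -60 to -55 in Vcam1 and at -53 to -48 in Icam1, was not found in Alcam, and was present at 8.8% of gene starts. The Alcam stretch had 24 CpG, against 4 in Vcam1 and 20 in Icam1, with a median of 7 over all gene starts. A match is a run of letters only and does not show that a factor binds there.

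Levels are given first in the units of the deposited processed intensities, on which values up to 8.51 lie in the background range, and then as log2 differences of S-Bdc minus L-Bdc on the normalised log2 scale. That scale has an offset of 50 added to the signal, which makes the difference of a dim gene smaller than it is. In RNA taken from a whole culture, fewer cells of a type and less RNA per cell cannot be told apart. Probes differ in brightness for reasons other than abundance, so no level is compared between genes.

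Vcam1, the receptor for the integrin of Itga4 and Itgb1, was lower in S-Bdc in all 5 pairs. Its S-Bdc signals were 20.9, -0.176, 18.1, 82.2 and 21.9 units in rats 1 to 5, and its L-Bdc signals were 297.4, 130.1, 75.3, 320.5 and 289.4 units. The S-Bdc of rat 2 lay in the background range, and the sites overlapped only through rats 3 and 4, as the highest S-Bdc signal, of rat 4, passed the lowest L-Bdc signal, of rat 3. S-Bdc averaged 28.6 ± 31.3 units and L-Bdc averaged 222.5 ± 111.7 units (SD, n = 5 each), and the ratio of L-Bdc to S-Bdc was 7.79. Without rat 4, whose S-Bdc was the brightest, that ratio was 13.0, and within rats it ran from 3.9 to 14.2, with none for rat 2, whose S-Bdc was in the background range. On the log2 scale the difference was -1.60 ± 0.17, and it ran from -2.12 in rat 1 to -0.78 in rat 3. Here and for every later difference, ± is the SE from the linear model with rat as a block (n = 5 pairs). That model borrows variance across all probes, so its SE does not measure the spread of the 5 pairs of 1 gene. Vcam1 varied among L-Bdc more than any other of the 5 genes did at either site, and its log2 SD was 0.45 for S-Bdc and 0.66 for L-Bdc.

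Alcam, whose product binds itself and the lymphocyte receptor CD6, had the opposite pattern. Its S-Bdc signals were 2898.8, 3069.9, 2990.7, 3082.6 and 3478.7 units in rats 1 to 5, against 1533.6, 1996.1, 1585.6, 1784.5 and 1480.6 units in L-Bdc. Every S-Bdc lay above every L-Bdc, with a wide gap between the lowest S-Bdc and the highest L-Bdc. S-Bdc averaged 3104.1 ± 221.9 units and L-Bdc averaged 1676.1 ± 212.7 units (SD, n = 5 each), a ratio of S-Bdc to L-Bdc of 1.85. The log2 difference was 0.87 ± 0.08, from 0.60 in rat 2 to 1.20 in rat 5. The replicates were close, and the log2 SD was 0.10 for S-Bdc cultures and 0.17 for L-Bdc cultures. Alcam had the smaller difference of these 2 genes on the log2 scale but the narrower spread at both sites.

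**Figure D1:**
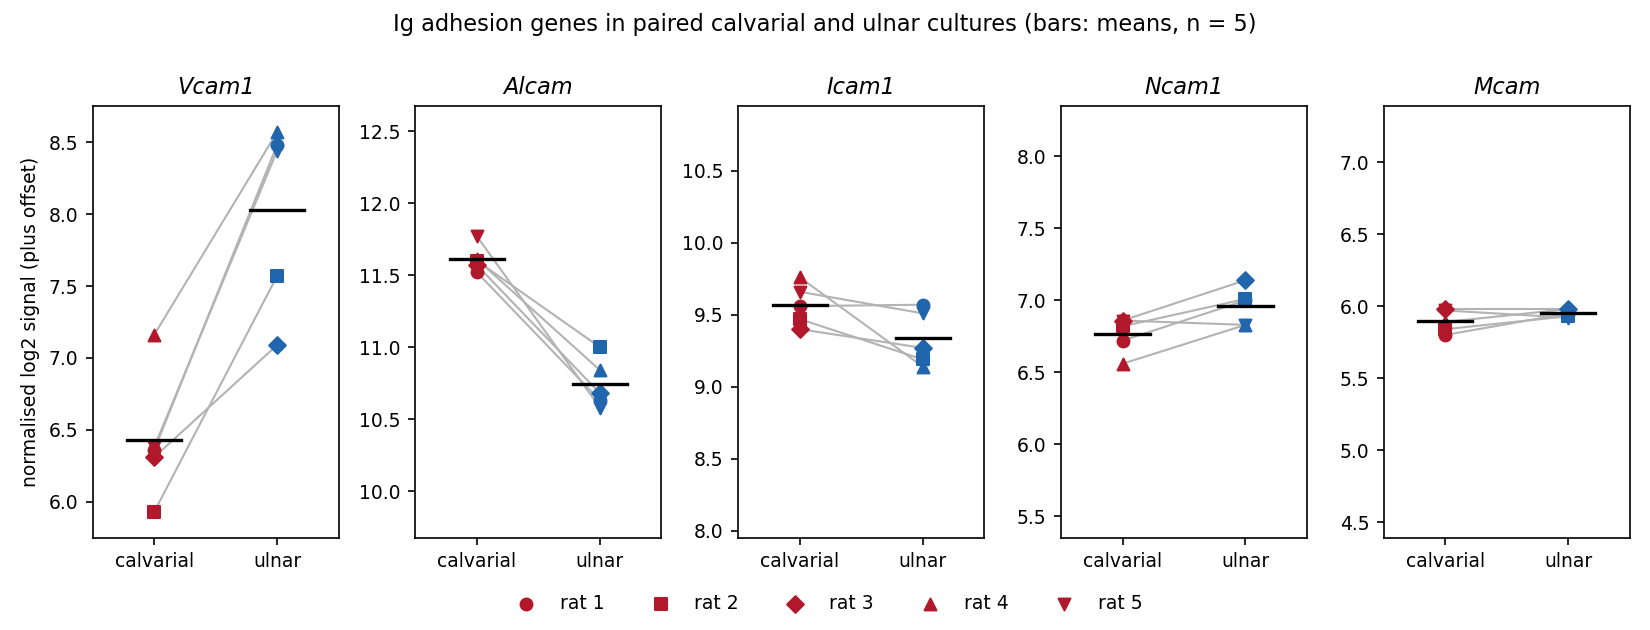
Normalised log2 signal of the 5 genes in S-Bdc (calvarial, red) and L-Bdc (ulnar, blue), a symbol for each rat, grey lines joining the cultures of a rat and black bars for the means of 5. Each panel spans 3 log2 units about its own centre. Vcam1 lies lower in S-Bdc and Alcam higher in all 5 pairs, while Icam1, Ncam1 and Mcam lie close together.

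Icam1, which binds the leukocyte integrins of Itgb2, was bright at both sites and differed little. Its signals were 701.5, 651.3, 620.6, 814.0 and 752.3 units in S-Bdc of rats 1 to 5, against 701.9, 528.5, 561.2, 505.2 and 675.0 units in L-Bdc. S-Bdc was higher in 4 of 5 rats and level with L-Bdc in rat 1, and the sites overlapped. The log2 difference was 0.23 ± 0.08, and the greatest was 0.63, in rat 4. The same rat had the highest S-Bdc and the lowest L-Bdc signal of Icam1. On the log2 scale S-Bdc averaged 9.57 ± 0.14 and L-Bdc averaged 9.34 ± 0.19 (SD, n = 5 each).

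Ncam1, a self-binding molecule of neural and mesenchymal cells, was dim but above background on all 10 arrays. Its signals were 44.6, 51.6, 55.0, 33.0 and 54.9 units in S-Bdc, against 67.5, 67.9, 80.0, 52.6 and 53.1 units in L-Bdc. S-Bdc was lower in 4 of 5 rats and slightly higher in rat 5, where L-Bdc had one of its lowest signals, and the sites overlapped. The log2 difference was -0.20 ± 0.06, from -0.28 in rats 1 and 3 to 0.02 in rat 5. At both sites rat 3 had the highest and rat 4 the lowest signal.

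Mcam, which marks endothelium, pericytes and marrow stromal progenitors, was not above background on any of the 10 arrays. Its signals lay between -5.36 and 2.05 units in S-Bdc and between -0.609 and 2.0 units in L-Bdc. No direction or fold can be read from values in this range. With Mcam in the background range, 3 of the 5 genes were above it on all 10 arrays, and Vcam1 on 4 S-Bdc arrays and all 5 L-Bdc arrays.

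**Figure D2:**
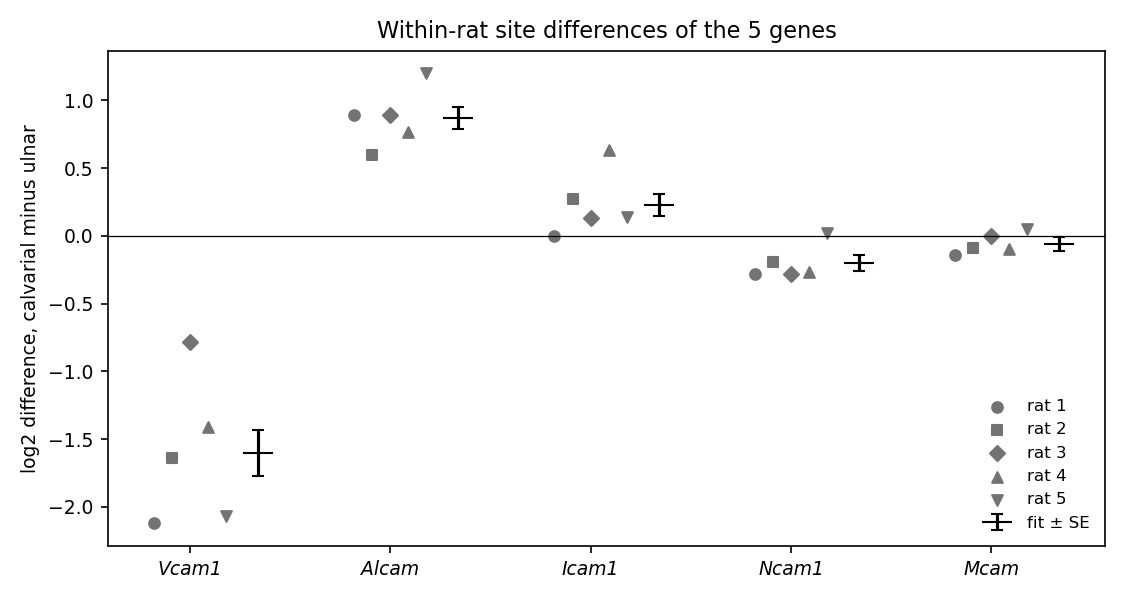
Log2 difference of S-Bdc (calvarial) minus L-Bdc (ulnar) of the 5 genes within each rat (grey symbols) and in the linear model over all probes (black, ± SE, n = 5 pairs). Vcam1 runs from -2.12 to -0.78, Alcam from 0.60 to 1.20 and Icam1 from level to 0.63, while Ncam1 and Mcam lie near 0.

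Over all 22517 probes, 2050 passed an adjusted p of 0.05 between the sites (limma with rat as a block), a share of 9.10%. The share higher in S-Bdc was 4.43% and the share lower there was 4.68%. With dimmer probes left out, 2131 of the 12736 probes above background on at least 3 arrays passed, 1034 higher and 1097 lower, which is a larger share. The adhesion, partner, NF-kB pathway, NF-kB target and sheddase lists below hold mostly genes above background on some array, so 9.10% is a low mark for them. With no normalisation between arrays 870 probes passed, 513 higher and 357 lower, and with a floor of 16 on the processed intensities 204 passed, 122 higher and 82 lower. Vcam1 and Alcam, 2 of the 5 genes, were among the 2050, and nothing is read from that share since the genes were chosen with this contrast in view. Both dropped out with the floor of 16 on the processed intensities, and Ncam1 came in without rat 5. The values of 7.00% of all probes did not overlap between the sites, and of the 5 genes Alcam alone did not.

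From culture to culture the genes varied together in some pairs and against each other in others. After the site means were taken out, Vcam1 and Alcam correlated at -0.184 over the 10 arrays, Vcam1 and Icam1 at 0.522, and Vcam1 and Ncam1 at -0.826. Alcam and Icam1 correlated at -0.447, and Alcam and Ncam1 at 0.124. These are descriptions over 10 arrays in which each pair of values comes from the same array, and the paired cultures share a rat. For Vcam1 and Ncam1, the S-Bdc of rat 4 was highest in Vcam1 and lowest in Ncam1, and the L-Bdc of rat 3 was lowest in Vcam1 and highest in Ncam1. A plain correlation holds the site difference as well, and was -0.84 between Vcam1 and Alcam.

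Among 8152 other named genes above background on at least 5 arrays, those most like Vcam1 over the 10 arrays were Chrdl2, a BMP antagonist gene (Pearson r = 0.959), the ubiquitin protease gene Usp13 (0.957), clusterin, Clu, a secreted chaperone (0.954), Klhl41, a kelch protein of muscle (0.94), and Ttc27 (0.937). Clu had the same outlying cultures. Its normalised log2 signal was 10.62 in the S-Bdc of rat 4, against 9.79 to 10.16 in the other S-Bdc, and its L-Bdc read 11.79, 10.53, 10.76, 11.32 and 11.27 in rats 1 to 5. In L-Bdc, rats 2 and 3 were thus the lowest in Clu as they were in Vcam1. Chrdl2, Klhl41 and Ttc27 likewise had their highest S-Bdc in rat 4 and their lowest L-Bdc in rats 2 and 3. The highest S-Bdc of Usp13 was that of rat 5. With the site means taken out, the most alike were Atp6v1d, a subunit of the vacuolar proton pump (0.96), Clip4 (0.946) and Mtmr10 (0.903). Of these, Atp6v1d had the opposite site difference to Vcam1, 0.43 ± 0.07.

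The genes most like Alcam were Ifngr1, the interferon gamma receptor chain (0.992), the sialyltransferase gene St3gal6 (0.987), Lbp, which binds lipopolysaccharide (0.985), Rtn1 (0.979) and Smpdl3a (0.979). Ifngr1 read 9.62, 9.69, 9.65, 9.78 and 9.75 in S-Bdc of rats 1 to 5, against 8.86, 9.16, 9.0, 9.02 and 8.85 in L-Bdc on the normalised log2 scale. As in Alcam, rats 1 and 5 were the lowest of L-Bdc and rat 2 the highest. With the site means taken out, the most alike were Ech1, an enzyme of fatty acid oxidation (0.936), the mitochondrial fission gene Fis1 (0.916) and Mtor, the growth kinase (0.911). Fis1 had a log2 difference between the sites of 0.00 ± 0.10. Genes found this way were chosen for likeness, which includes the site difference, so their own differences carry no test.

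**Figure D3:**
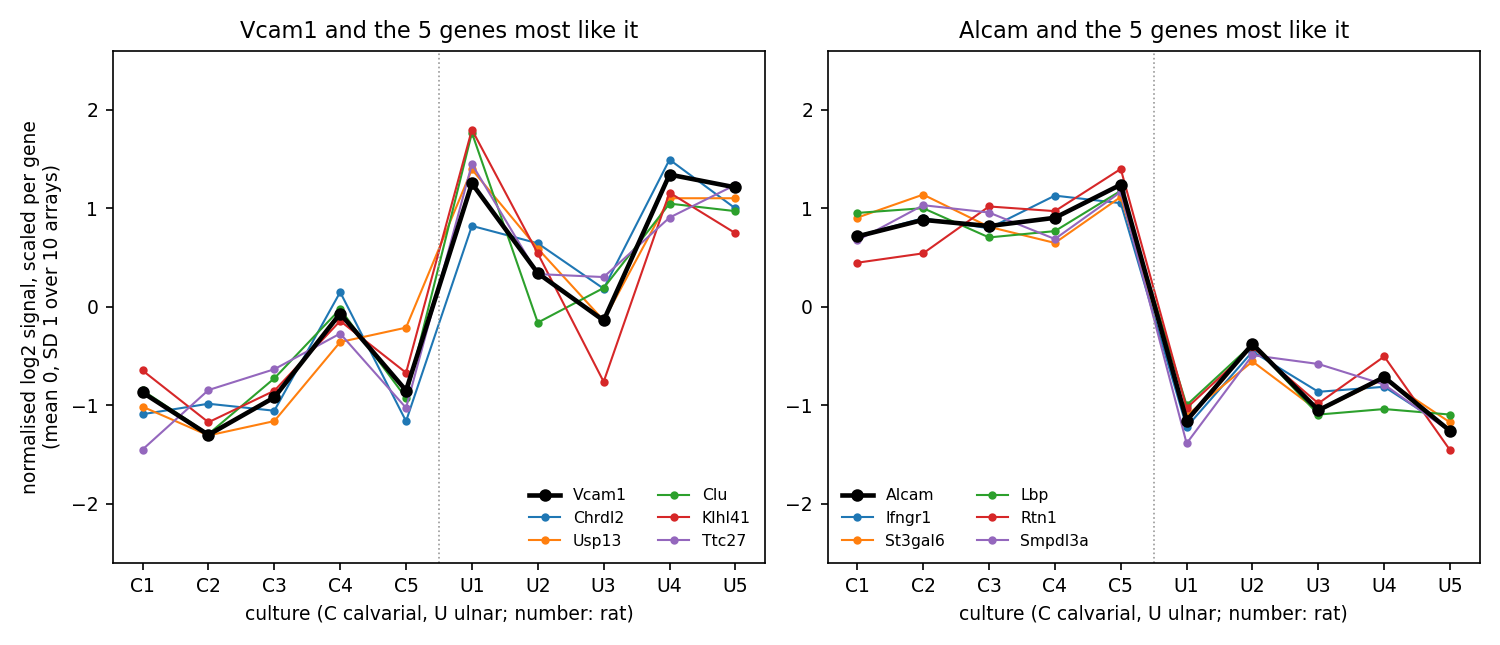
Vcam1 (left) and Alcam (right), each with the 5 genes most like it, over the 5 S-Bdc (C1 to C5, calvarial) and the 5 L-Bdc (U1 to U5, ulnar), the number giving the rat. The normalised log2 signal of each gene is scaled to mean 0 and SD 1. Vcam1, Chrdl2, Clu, Klhl41 and Ttc27 have their highest S-Bdc value at C4 and their 2 lowest L-Bdc values at U2 and U3. Usp13 has its highest S-Bdc value at C5. Alcam and the 5 genes like it all have their highest L-Bdc value at U2.

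Most other adhesion genes of the immunoglobulin superfamily did not pass the test between the sites. Of the 37 on the arrays, S-Bdc had 2 higher and 3 lower (13.5%, against 9.10% of all probes), and the median log2 difference was -0.002, against -0.001 over all probes. Cadm1, a self-binding molecule of epithelial and nerve cells, was higher in S-Bdc by 1.64 ± 0.10 (limma, adjusted p = 2.02e-05). It read 875.9, 616.4, 892.3, 880.3 and 837.6 units in S-Bdc of rats 1 to 5, against 162.9, 199.3, 207.9, 285.6 and 253.3 units in L-Bdc. All S-Bdc thus lay above all L-Bdc, and the 2 other Cadm1 probes were not above background on any array and were not called. As a mean over its 3 probes the difference was 0.59. Pvr, the poliovirus receptor, a nectin-like molecule, was lower in S-Bdc (-0.77 ± 0.09). Of the junction genes, Jam3 was higher (0.43 ± 0.10) and F11r (-0.27 ± 0.07) and Nectin1 (-0.18 ± 0.05) were lower, and of these 3, the calls of Jam3 and F11r were lost without rat 2, 3 or 4 and that of Nectin1 without any 1 rat. Thy1 (-0.30 ± 0.09, adjusted p = 0.0896) and Clmp (0.20 ± 0.09, adjusted p = 0.27), the brightest genes not called, were above background on all arrays.

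Of the chains of the integrins that bind Vcam1, Itgb7, which pairs with Itga4, was higher in S-Bdc (0.33 ± 0.07, adjusted p = 0.0107). Itgb1 and Itga4 were not called. Itgb1 differed by -0.12 ± 0.06 (adjusted p = 0.391) and the dim Itga4 by -0.08 ± 0.05 (adjusted p = 0.506). The leukocyte chain gene Itgal and the fibrinogen genes Fgb and Fgg were not above background on any array. Of the genes that link the tails of these molecules inside the cell, both alpha-actinins were lower in S-Bdc, Actn4 at -0.54 ± 0.07 and Actn1 at -0.47 ± 0.07, as was moesin, Msn, at -0.58 ± 0.09. Syntenin, Sdcbp, was higher (0.39 ± 0.10, adjusted p = 0.033), and the spectrin gene Sptbn1 was not called (0.01 ± 0.07, adjusted p = 0.96). The kin of moesin, Ezr (0.12 ± 0.06, adjusted p = 0.294) and Rdx (-0.29 ± 0.10, adjusted p = 0.133), were not called. Spn, a sialomucin that Icam1 binds, was lower (-0.37 ± 0.07), and galectin 3, Lgals3, which binds sugar chains of such molecules, was higher (0.40 ± 0.08). Of 26 partner and linker genes 4 were higher and 5 lower in S-Bdc, a share of 34.6%, against 9.10% of all probes, with a median log2 difference of 0.024. Lgals1 (0.01 ± 0.06, adjusted p = 0.979) and the Ncam1 partner Prnp (0.28 ± 0.10, adjusted p = 0.115) were the brightest not called. Itga4, Itgb1, Itgb7, Itgal, Fgb, Fgg, Ezr, Rdx, Sdcbp and Sptbn1 were singled out once their values were known.

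Genes of cytokine signalling and the NF-kB pathway went both ways, and their list holds inhibitors as well as inducers of Vcam1 and Icam1. Receptor genes named here were higher in S-Bdc, with Ifngr1 at 0.72 ± 0.06 (adjusted p = 9.72e-05), the interleukin 4 receptor Il4r at 0.74 ± 0.09, and Il1r2, the decoy receptor of interleukin 1, at 0.85 ± 0.08. The ligand genes Il1a (-0.57 ± 0.08) and Il1b (-0.35 ± 0.07, adjusted p = 0.0156) were lower in S-Bdc. So was Il1rn, the antagonist of the interleukin 1 receptor (-0.60 ± 0.11, adjusted p = 0.0066). The ligand genes Tnf, Il4 and Ifng were not called. Klf4, a Kruppel-like factor that acts on inflammatory genes, was higher by 1.14 ± 0.07 (adjusted p = 2.64e-05). The NF-kB subunit genes were not called, with Nfkb1 at -0.02 ± 0.06 (adjusted p = 0.927) and Rela at -0.03 ± 0.07 (adjusted p = 0.889). Nfkbia, the inhibitor that NF-kB itself induces, differed by 0.30 ± 0.10 (adjusted p = 0.105) and Tnip1 by -0.03 ± 0.11 (adjusted p = 0.937). Of 35 genes 7 were higher and 5 lower, a share of 34.3%, against 9.10% of all probes, with a median of 0.019. Il1b, Il1rn, Tnf, Il4, Ifng, Nfkb1 and Rela were chosen with their values already seen.

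Target genes of NF-kB were likewise split. Ptgs2, the inducible prostaglandin synthase, read 720.9, 397.5, 578.7, 677.0 and 840.8 units in S-Bdc of rats 1 to 5, against 2073.1, 1510.7, 2061.0, 1118.0 and 2773.9 units in L-Bdc. Il6 read 277.7, 253.0, 504.8, 446.8 and 440.6 units in S-Bdc, against 867.0, 917.6, 860.1, 989.9 and 931.3 units in L-Bdc. Every S-Bdc lay below every L-Bdc in both genes, with log2 differences of -1.46 ± 0.14 for Ptgs2 (adjusted p = 2.33e-04) and -1.16 ± 0.12 for Il6 (adjusted p = 3.11e-04). Among L-Bdc, rat 4 was the lowest in Ptgs2 but the highest in Il6 and in Vcam1, and rat 3 was the lowest in Il6 and in Vcam1. Selp, P-selectin, passed background on no S-Bdc array and on all 5 L-Bdc arrays, and was at least 1.5-fold lower in S-Bdc (adjusted p = 0.0023). The chemokine gene Ccl20 (2.02 ± 0.17) and lipocalin 2, Lcn2 (1.12 ± 0.18), were higher in S-Bdc. Ccl7 (0.24 ± 0.11, adjusted p = 0.284) and Ccl2 (-0.06 ± 0.15, adjusted p = 0.912), chemokines of monocytes, were bright and not called. Of 24 targets 2 were higher and 7 lower, a share of 37.5%, against 9.10% of all probes (4.43% higher and 4.68% lower), and the median was -0.033. Of 16 of these with a given gene start, 4 held a match to the loose form, which 11.6% of all gene starts held. They were Ccl20, higher in S-Bdc, Plau (-0.69 ± 0.11) and Gch1 (-0.44 ± 0.12), both lower, and Cxcl2, which was not called (0.04 ± 0.06, adjusted p = 0.81). Of 26 other adhesion genes with a given gene start, 3 held such a match. Both counts are small, and whether either share differs from that of all gene starts was not tested.

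Mmp3, Adam17 and Mmp9, proteases that cut proteins at the cell surface, were lower in S-Bdc. Stromelysin, Mmp3, read 15.2, 17.2, 33.2, 24.2 and 19.2 units in S-Bdc of rats 1 to 5, against 151.9, 286.9, 440.5, 368.2 and 221.4 units in L-Bdc. No S-Bdc came near an L-Bdc, and the log2 difference was -2.03 ± 0.12 (adjusted p = 2.27e-05). Adam17, the main sheddase of Vcam1, was lower by a small amount (-0.30 ± 0.07, adjusted p = 0.0216), a call that was lost without rat 3, 4 or 5. Adam10, another sheddase, was not called by its brighter probe (-0.16 ± 0.06, adjusted p = 0.137). Psen2, of the gamma-secretase that cleaves the stubs left in the membrane, was higher (0.71 ± 0.09). Its other measured subunit genes were not called, with Psenen at 0.04 ± 0.05 (adjusted p = 0.813) and Ncstn at 0.19 ± 0.06 (adjusted p = 0.0803). Aph1a was at -0.05 ± 0.08 (adjusted p = 0.846) and Aph1b at 0.17 ± 0.10 (adjusted p = 0.45). Reck, a membrane inhibitor of metalloproteases, was higher (0.46 ± 0.07), and the dimmer second probe of Reck was not called (0.15 ± 0.07). Mmp9 was lower (-0.20 ± 0.05, adjusted p = 0.0493), a call lost without rat 2, 3, 4 or 5. The bright Timp1 (-0.06 ± 0.06, adjusted p = 0.725) and Mmp14 (0.14 ± 0.08, adjusted p = 0.385) were not called. Of 19 genes 2 were higher and 3 lower, a share of 26.3%, against 9.10% of all probes, with a median of 0.021. Adam10, Psenen, Ncstn, Aph1a and Aph1b were named after their values were seen.

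**Figure D4:**
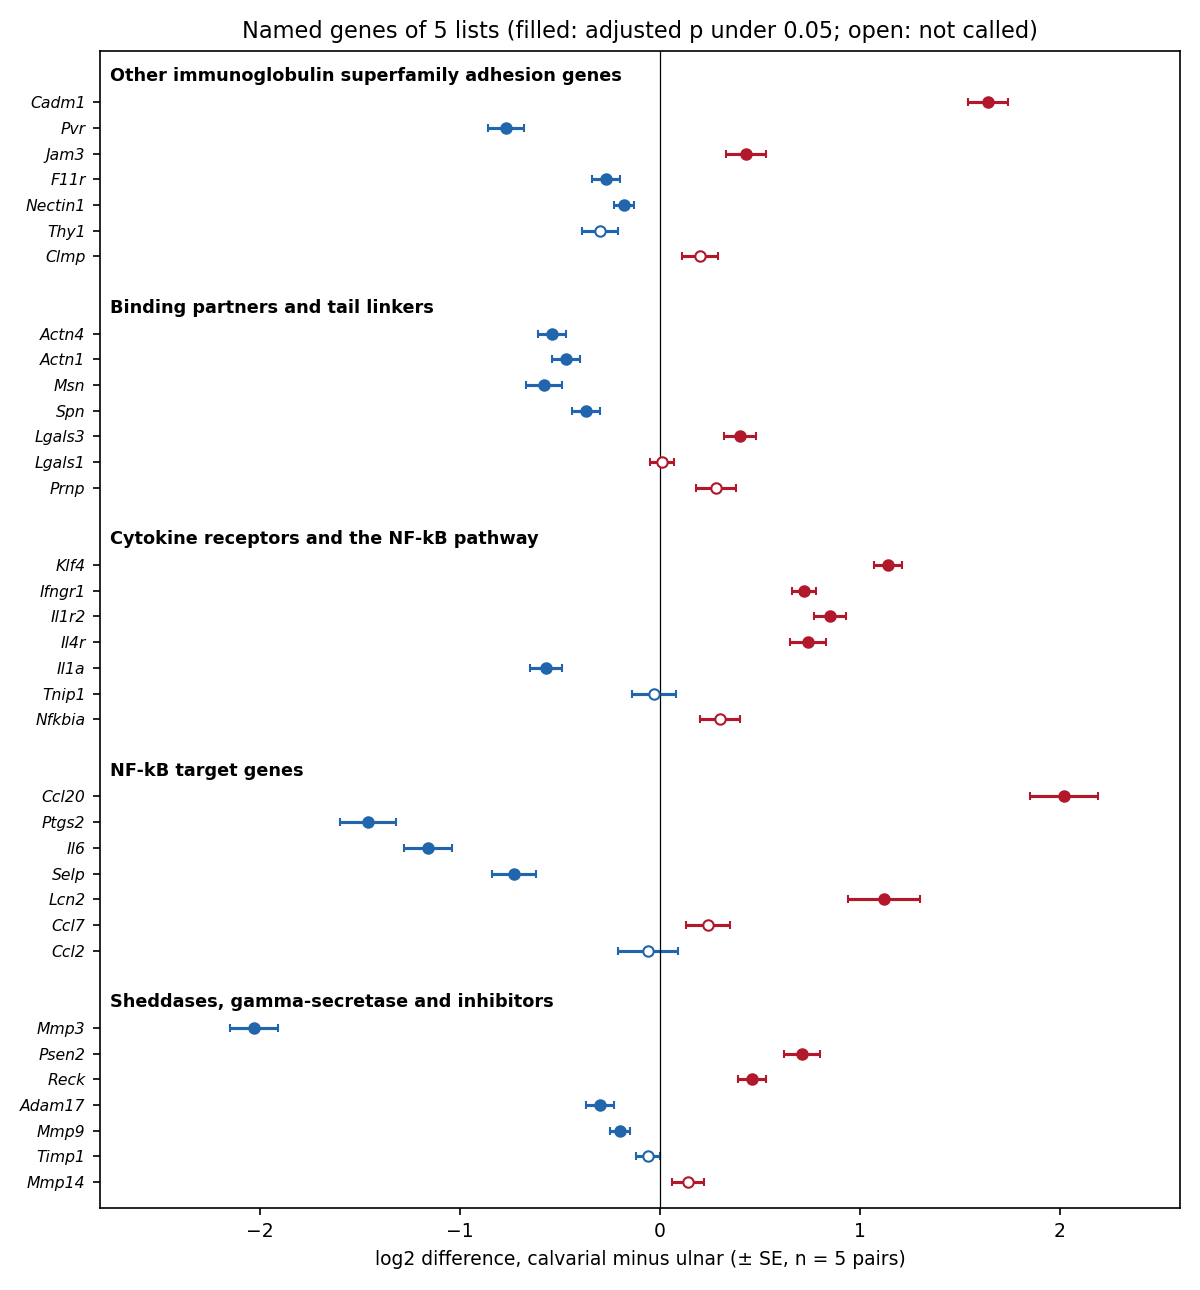
Log2 difference of S-Bdc (calvarial) minus L-Bdc (ulnar) with its SE (n = 5 pairs) for the genes named by rule in 5 lists. Red lies to the right (higher in S-Bdc) and blue to the left, filled symbols passed an adjusted p of 0.05 over all probes and open ones did not. Each list holds called genes on both sides of 0.

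The cell type that the labels give was checked by its markers. Of 10 osteoblast genes measured, 9 were above background on at least 1 array, and Col1a1, Col1a2, Sparc and Spp1 were bright at both sites. The other osteoblast genes were dim. Alpl (60.0 units in S-Bdc, 47.1 units in L-Bdc) and Ibsp (28.2 units in S-Bdc, 26.9 units in L-Bdc) were above background on all arrays. Sp7 passed it on 2 S-Bdc arrays and 1 L-Bdc array, and Bglap on 3 S-Bdc arrays and 1 L-Bdc array. Dmp1 passed it on 1 array of each site and Phex on none. Col1a1 was higher (0.58 ± 0.06) and Spp1 lower (-1.81 ± 0.12) in S-Bdc, and the list summed to 24979.9 to 29390.4 units in S-Bdc and 30572.2 to 35159.8 units in L-Bdc.

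Vcam1 and Mcam are also genes of vessels, so endothelial markers were measured beside them. Of 10 such genes 6 were above background on any array and 0 were called, with 9.10% of all probes called. Their summed level was 73.3 to 120.7 units in S-Bdc and 128.9 to 179.2 units in L-Bdc, with no overlap. Egfl7 gave the largest part of it (48.3 units in S-Bdc, 72.4 units in L-Bdc). Tie1 and Cldn5 were dim but above background on all arrays, and Flt1 was above it on 4 S-Bdc and 5 L-Bdc arrays. Cdh5, Emcn, Vwf and Esam were not above background on any array. Of 8 mural cell genes 6 were above background on any array, Rgs5 and Kcnj8 on none, and the summed level was 1225.8 to 2141.4 units in S-Bdc and 1227.5 to 1850.7 units in L-Bdc, most of it Tagln. Cspg4 was lower (-0.35 ± 0.06), and Abcc9, which passed background on 4 S-Bdc arrays and no L-Bdc array, was at least 1.07-fold higher, a call lost without rat 3, 4 or 5. Of 7 macrophage genes 2 were above background on any array, the sum was 303.3 to 407.4 units in S-Bdc and 310.3 to 576.3 units in L-Bdc, almost all Cd14, and Ptprc, Aif1, Adgre1, Cd163 and Tyrobp were at background throughout.

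Ncam1 is a gene of nerve, glia and muscle as well, and the summed markers of these cells overlapped between the sites. They were 70.7 to 89.7 units in S-Bdc and 80.0 to 120.4 units in L-Bdc for 7 neuron genes, of which Tubb3 was called lower (-0.27 ± 0.07), a call lost without rat 2, 3, 4 or 5. For 5 glial genes they were 151.8 to 393.9 units in S-Bdc and 224.4 to 510.3 units in L-Bdc, mostly S100b. For 7 skeletal muscle genes they were 46.0 to 71.6 units in S-Bdc and 61.9 to 110.0 units in L-Bdc. The muscle genes Myog and Ckm and the neuron gene Nefl were not above background on any array. Of the same lists, Tnnt3 was above it on all arrays and Myf5 on 4 arrays of each site. Nefm was above it on 5 S-Bdc and 3 L-Bdc arrays, and Nefh on 5 S-Bdc and 4 L-Bdc arrays. Of the osteoclast, lymphocyte, adipocyte and cartilage lists, with 4, 5, 5 and 3 genes measured, 0 genes were called, with 9.10% of all probes called. Lists this short may hold no call at that share. The osteoclast gene Ctsk was bright (1799.7 units in S-Bdc, 1982.3 units in L-Bdc). Calcr, Oscar and Atp6v0d2, the others of that list, were not above background on any array. The adipocyte gene Fabp4 was dim but above background on all arrays, and Adipoq and Lep were on none. Pparg was above it on 5 S-Bdc and 2 L-Bdc arrays, and Cidec on 1 S-Bdc and 2 L-Bdc arrays. The part of such cells in the differences of Vcam1 and Ncam1 was not tested. Egfl7, Tagln, Cd14, S100b and the other markers named beside their levels or their arrays above background were likewise chosen with values seen.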

How the data were processed

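The authors measured mRNA on Illumina RatRef-12 BeadChips, 1 array per culture, and exported it from BeadStudio. One deposited table gives raw intensity, the mean over beads for each probe, with no background subtraction or normalisation and with array medians of 40.6 to 48.1. The deposited value table holds processed intensities whose columns have nearly the same distribution (medians 9.36 to 9.40, 24.0 to 24.1% at or below 0), so background appears subtracted and arrays quantile normalised, by steps whose settings are not given in the sources used here. The number of arrays limits precision.

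The tables carry different identifiers, so a raw row was joined to the value row whose ranks across the 10 arrays lay nearest. This joined 22517 raw rows, the next-best row being at least 6.35 times farther, and 6 value rows had no raw row. A gene name depends on that join and on the platform annotation, where 8730 of the probes carry no symbol. Such probes are unnamed here.

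Raw signals underwent normexp background correction (offset 50), log2 transformation and quantile normalisation, and were fitted with rat and site in limma 3.58.1 (R 4.3.3), with Benjamini-Hochberg adjustment over all probes. The rat is a block because the paper describes 5 matched pairs of cultures from 5 rats. The labels only number the cultures of each site, and an equal number was taken to mean the same animal. For rats 1 to 5 the paired deviations from site means had correlations of 0.06, 0.211, 0.25, 0.176 and 0.129. The S-Bdc of rat 1 correlated most with the L-Bdc of rat 5 (0.284), and each other S-Bdc most with the L-Bdc of its own number. The background limit, 8.51 processed units, is the 95th percentile of the size of the values at or below 0. A fold is given as "at least" where no array of 1 site passed it, against the higher of the lowest signal above it and the probe's own. The pipeline was tested on simulated data.

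The 5 genes, the lists and the alternatives were chosen with earlier results of these data known. Named genes were the 5 genes, of each list up to 5 called genes with the lowest adjusted p and the 2 brightest not called, of each marker list up to 2 called genes, and the genes nearest in pattern to Vcam1 (5 and 3) and Alcam (5 and 3). Each gene of a list stands by its brightest probe. Promoter sequences are from RefSeq. Slides and scan dates were not used here.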

Additional observations from a re-analysis of the deposited data

How the results depend on the processing

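The differences of Vcam1, Alcam, Icam1 and Ncam1 kept their direction under all alternatives run, and Mcam, at background, had no direction to keep and dropped out when dimmer probes were left out. Leaving out each rat in turn gave -1.81 to -1.47 for Vcam1, 0.79 to 0.94 for Alcam, 0.14 to 0.29 for Icam1, -0.26 to -0.18 for Ncam1 and -0.08 to -0.03 for Mcam. The difference of Vcam1 was -2.16 with an offset of 16, and -2.92 in the processed intensities with a floor of 16, where Ncam1 was -0.43 and where Vcam1 and Alcam were no longer called. Ncam1 was called without rat 5. The ratio of mean units of Vcam1, L-Bdc over S-Bdc, was 6.68 to 13.0 without each rat in turn, an alternative chosen after seeing the data. Without the pairing by rat (no replicate block), the differences were the same by construction, -1.60 for Vcam1 and 0.87 for Alcam, and 1915 probes were called (918 higher and 997 lower). The probes called, 2050 of 22517, were 1268 under median scaling (709 higher and 559 lower), 870 with no normalisation between arrays (513 and 357), 758 in the processed intensities plus 50 (405 and 353), 204 in those with a floor of 16 (122 and 82), and 1324 to 2224 without each rat in turn, the lowest without rat 3. The 5 other adhesion genes called became 2 under median scaling, 2 with no normalisation, 1 with the floor and 2 to 4 without a rat, with 2 without rat 2 and without rat 3. The 9 partner and linker genes became 5, 4, 2 (processed intensities plus 50) and 0 (floor), and 7 to 11 without a rat. The 12 cytokine and NF-kB pathway genes became 6 with no normalisation, 3 in the intensities plus 50 and 3 with the floor, and 9 to 11 without a rat. The 9 NF-kB targets became 3 in the intensities plus 50 and 0 with the floor, and 7 to 9 without a rat. The 5 sheddase genes became 3 under median scaling, 3 with no normalisation, 1 in the intensities plus 50 and 1 with the floor, and 3 to 6 without a rat, with 3 without rats 3, 4 or 5. The cause of these changes was not tested. Of single-gene values under the alternatives, 420 kept their direction and side of the threshold, 84 lost the call, 3 gained one (Nfkbia without rat 3, Thy1 without rat 4 and Prnp without rat 5) and 13 changed sign, all of genes not called. Under median scaling, and likewise with no normalisation, Tnip1 was 0.04, Ccl2 0.05 and Timp1 0.02, and without each rat in turn Tnip1 ran from -0.13 to 0.05, Ccl2 from -0.24 to 0.05 and Lgals1 from -0.03 to 0.07. The calls of Adam17, F11r, Jam3, Nectin1, Mmp9, Abcc9 and Tubb3 were each lost in 7 or more alternatives. Dim signals limit what can be read of Mcam, Selp, Nectin1, F11r and Itgb7.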
